A study of Mus musculus with 12 samples.

Results

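The 10 genes described here encode suppressors of cytokine signalling (Socs1, Socs2, Socs3 and Cish), STAT transcription factors (Stat3 and Stat5a), the gp130 receptor family (Il6st, Osmr and Lifr) and the kinase JAK1 (Jak1). They were found by gene symbol among the 55401 genes of a read count table, each had 1 row, and all 10 passed the low-count filter that left 25771 genes tested. Their transcripts were measured in satellite cells, the muscle stem cells, of mouse hind limbs, sorted as Pax7-ZsGreen+ cells. All mice were adult, carried Cxcr4 FL/FL and the Pax7-ZsGreen reporter, and received 80 mg/kg tamoxifen for 5 days. The authors' methods for the conditional knockouts add a tamoxifen diet after these injections until the experiment ended. The Cxcr4 KO mice also carried Pax7-creERT2, a tamoxifen-inducible Cre driven by Pax7, so that recombination was restricted to cells that had used that driver while tamoxifen was given and could miss some of them. The WT mice carried no Cre. Quiescent cells were taken directly after enzymatic digestion and sorting (4 WT and 4 KO libraries), and activated cells after an overnight culture in growth medium (2 WT and 2 KO libraries). The labels do not state that replicates were separate animals, so the p-values below measure the spread between these libraries, which may in part be technical.

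gp130, the product of Il6st, is the signalling chain shared by receptors for the interleukin-6 family of cytokines. OSMR and LIFR pair with it to bind oncostatin M and leukaemia inhibitory factor, and kinases of the JAK family attached to these chains phosphorylate STAT proteins, which move to the nucleus and switch genes on. Socs3 and Cish are among the genes switched on, and their proteins act back on the receptor complex, so that their transcripts are commonly used as a readout of the pathway. In satellite cells STAT3 signalling is known for its effects on expansion and myogenic commitment, and oncostatin M signalling through OSMR for keeping the cells quiescent.

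STAT dimers bind a short palindrome, TTCNNNGAA, which reads the same on either strand. It was searched in the promoter windows of RefSeq (GRCm38), which run from 250 bases before to 50 bases after a transcript start. Windows were matched for 9 of the 10 genes (Socs2 was not matched), and the windows of 2 of them, Socs3 and Cish, held the motif. Of all 32851 windows in the table, 2726 (8.30%) held it, and of all 27025 genes with a window, 2582 (9.55%) held it in at least 1. Part of each window, from 200 bases before to 30 bases after the start, is printed 5′ to 3′ on the strand of the gene because these are the 2 feedback inhibitors whose letters match, with the motif in capitals. The Socs3 stretch lies at chr11:117969337-117969566 on the minus strand, and the Cish stretch at chr9:107296459-107296688 on the plus strand. The gene bodies on GRCm38 place Osmr (chr15:6813577-6874969, minus strand) and Lifr (chr15:7090614-7197489, plus strand) near each other, and Stat3 (chr11:100885098-100939540, minus strand) end to end with Stat5a (chr11:100859351-100885169, plus strand). The RefSeq starts lie 85 bases (Socs3) and 51 bases (Cish) from the nearest transcript start in GENCODE M21.
Socs3: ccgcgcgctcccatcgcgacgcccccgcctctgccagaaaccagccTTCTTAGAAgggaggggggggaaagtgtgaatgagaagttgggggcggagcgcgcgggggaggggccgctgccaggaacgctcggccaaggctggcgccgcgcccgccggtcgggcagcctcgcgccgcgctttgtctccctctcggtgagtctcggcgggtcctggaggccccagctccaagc
Cish: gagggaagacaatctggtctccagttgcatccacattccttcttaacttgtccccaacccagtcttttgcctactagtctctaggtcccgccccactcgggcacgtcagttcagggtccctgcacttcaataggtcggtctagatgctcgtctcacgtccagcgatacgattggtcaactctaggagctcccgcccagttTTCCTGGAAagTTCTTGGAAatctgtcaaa
The Socs3 match began 154 bases before the start. Cish held 2 matches that do not overlap, at positions 1 and 12 counted from 1 at the first transcribed base. Among 18 known target genes of STAT3 or STAT5 listed for comparison, 15 had windows and 3 of those held the motif. These were Bcl6, Irf1 and Icam1. For comparison of the letters, the matches of Irf1 and Icam1, which encode an interferon-response transcription factor and an adhesion molecule, are printed with 8 bases on either side beside those of Socs3 and Cish.
Socs3: aaccagccTTCTTAGAAgggagggg
Cish, first: gcccagttTTCCTGGAAagttcttg
Cish, second: ctggaaagTTCTTGGAAatctgtca
Irf1: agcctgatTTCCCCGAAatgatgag
Icam1: cgcgaggtTTCCCGGAAagtggccc
A match of letters is not a measured binding site.

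Total counts ran from 12775593 to 23717013 in the 8 quiescent libraries and from 3172164 to 5427280 in the 4 activated ones, where a single ribosomal RNA row took 11.5% to 40.3% of the counts (0.295% to 0.807% in quiescent libraries). Levels are given as CPM, the read count relative to the TMM-scaled size of its library. As a check of the labels, Cxcr4 stood at 61.2, 59.1, 89.6 and 112 CPM in WT quiescent libraries and at 17.6, 21.2, 12.5 and 17.1 CPM in KO quiescent libraries. In activated cells it stood at 33.3 and 14.4 CPM in WT and at 5.39 and 13.7 CPM in KO, so that KO replicate 2 was close to WT replicate 2. All 8 satellite cell markers, Pax7 included, were detected in each group. State went together with other measures. The 4 Y-linked genes checked summed to 358 to 660 CPM in every quiescent library and to at most 2.51 CPM in activated ones, and Xist stood at up to 7.17 CPM in quiescent and at 451 to 817 CPM in activated libraries. Sex, depth and culture therefore cannot be told apart in the comparison of states. Levels called quiescent are those after digestion and sorting, and levels in undisturbed muscle were not measured. The authors report that satellite cells turn positive for MYOD1 protein, a very early step of activation, during isolation.

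In WT cells 9 of the 10 genes were lower in activated than in quiescent cells, and 0 were higher. Socs3 and Stat3, among the more abundant of the 10 in quiescent cells, fell most. A gene was called when its adjusted p (edgeR quasi-likelihood test, Benjamini-Hochberg over 25771 genes) was under 0.05, and by this rule 18.3% of all genes tested were lower and 11.5% higher. Among the 14006 genes with an average log2 CPM over 1 3748 (26.8%) were lower and 2796 higher. The median log2 fold change of the 10 genes was −1.78, against −0.92 over all genes tested and −0.24 over those 14006. In KO cells all 10 were lower, with a median of −2.49, where 20.4% of all genes were lower and 13.3% higher.

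**Figure D1:**
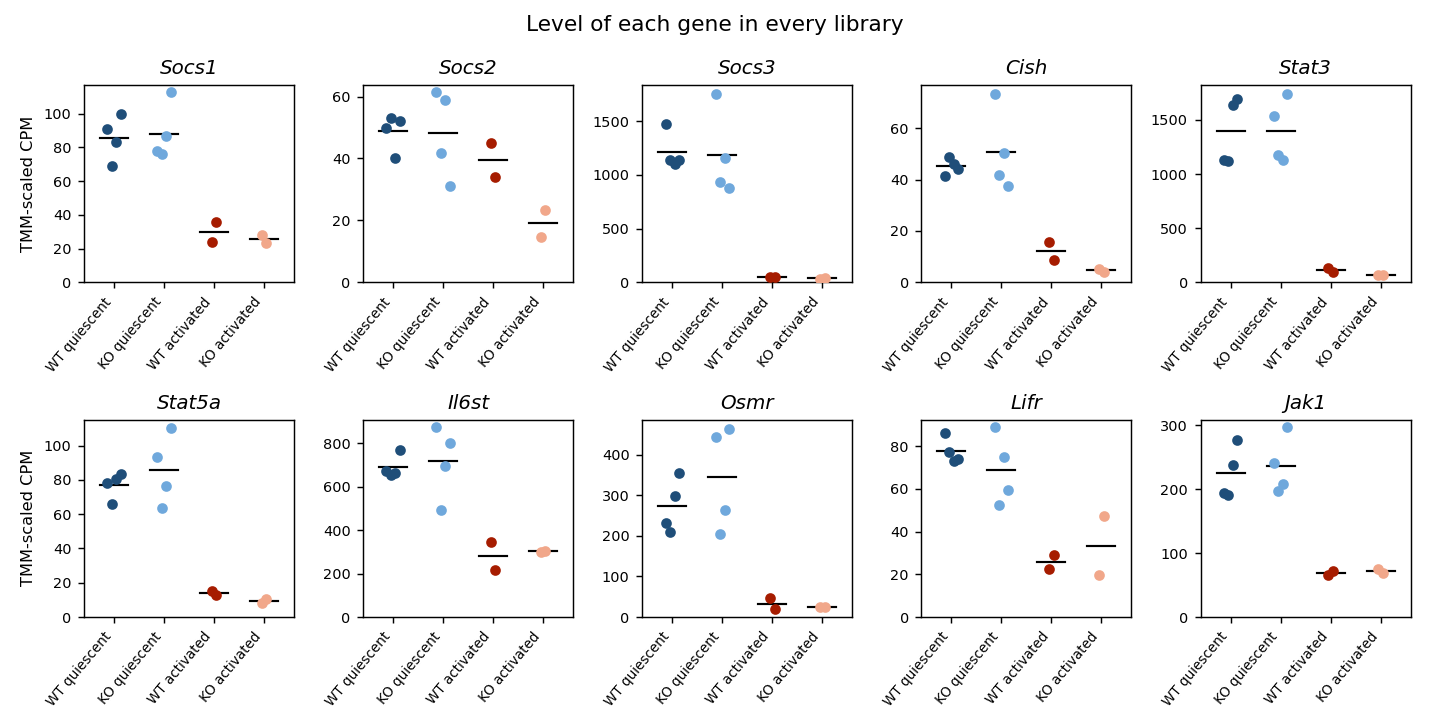
TMM-scaled CPM (linear axis, from 0, a scale of its own for each gene) of the 10 genes in the 12 libraries. Each point is 1 library and each line the mean of its group (4 WT and 4 KO quiescent, 2 WT and 2 KO activated). Socs3 lies at 876 to 1752 CPM in quiescent and at 34.2 to 53.9 CPM in activated libraries, while the WT points of Socs2 overlap between states.

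Among the inhibitors, Socs3, which blocks gp130-bound JAKs, stood at 1477, 1136, 1102 and 1140 CPM in WT quiescent cells and at 53.9 and 52.5 CPM in WT activated cells. The 2 states lay far apart. Its level was 22.8-fold lower in activated WT cells (log2 fold change −4.51 ± 0.36 SE, adjusted p = 4.88e-08 in edgeR), and only 2.86% of the 14006 more abundant genes had a lower log2 fold change. In KO cells it went from 1752, 938, 1158 and 876 CPM to 34.2 and 39.7 CPM, a 32.0-fold lower level (log2 fold change −5.00 ± 0.38, adjusted p = 2.08e-08 in edgeR).

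Cish, the feedback inhibitor best known downstream of STAT5, stood at 41.4, 48.8, 45.9 and 44.2 CPM in WT quiescent libraries and at 15.7 and 8.76 CPM in WT activated libraries, 3.57-fold lower (log2 fold change −1.84 ± 0.33, adjusted p = 0.000288 in edgeR). The KO values were 73.3, 41.6, 50.3 and 37.5 CPM in quiescent cells and 5.14 and 4.11 CPM in activated cells (log2 fold change −3.46 ± 0.38, adjusted p = 1.07e-06). Activated and quiescent libraries did not overlap in either genotype. Cish shares 740 exonic bases with antisense gene models on the other strand, and the strand setting of the counting is not given in the sources used here.

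Socs1, which inhibits JAKs directly and is best known from interferon signalling, stood at 68.8 to 113 CPM over the quiescent libraries and at 23.5 to 35.9 CPM over the activated ones. It was lower in activated cells in WT (log2 fold change −1.53 ± 0.28, adjusted p = 0.000363 in edgeR) and in KO (−1.78 ± 0.29, adjusted p = 7.67e-05). Socs2, the inhibitor known for restraining growth hormone signalling, was the exception. Its WT values were 49.8, 53.0, 40.0 and 52.0 CPM in quiescent cells and 45.1 and 34.2 CPM in activated cells. These overlapped, and the log2 fold change of −0.29 ± 0.30 was within its error (adjusted p = 0.454). In KO cells Socs2 went from 61.4, 41.9, 58.7 and 31.3 CPM to 14.6 and 23.5 CPM (log2 fold change −1.34 ± 0.32, adjusted p = 0.00318). Without KO activated replicate 1 that last call was lost (log2 fold change −1.04, adjusted p = 0.0940). A 452-base stretch of the Socs2 transcript matches the gene model Gm9847 at 99.6% identity, so some of its reads may have been placed elsewhere or dropped.

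Of the STAT genes, Stat3, the main transcription factor of the gp130 pathway, stood at 1126, 1118, 1635 and 1696 CPM in WT quiescent cells and at 130 and 90.6 CPM in WT activated cells. The activated levels were 12.6-fold lower (log2 fold change −3.66 ± 0.34, adjusted p = 2.35e-07 in edgeR). In KO cells the values went from 1534, 1181, 1132 and 1740 CPM to 67.6 and 66.4 CPM, 20.9-fold lower (log2 fold change −4.38 ± 0.36, adjusted p = 4.15e-08). Stat5a, one of a pair of closely related STAT5 genes, stood at 63.7 to 110 CPM in quiescent and at 8.22 to 15.2 CPM in activated libraries (log2 fold change −2.45 ± 0.30 in WT, adjusted p = 4.47e-06, and −3.19 ± 0.31 in KO, adjusted p = 3.42e-07). Its neighbour and paralogue Stat5b, which was not among the 10, stood at 55.2 to 71.8 CPM in quiescent and 55.9 to 80.1 CPM in activated libraries, and was not called (log2 fold change −0.05 ± 0.24 in WT and 0.10 ± 0.23 in KO). The longest stretch shared by their transcripts is 702 bases at 90.6% identity. Stat3 and Stat5a overlap by 72 exonic bases on opposite strands.

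The receptor genes went down by unequal amounts. Osmr stood at 232, 209, 298 and 354 CPM in WT quiescent cells and at 46.4 and 19.3 CPM in WT activated cells (log2 fold change −3.02 ± 0.42, adjusted p = 1.69e-05 in edgeR). Without WT activated replicate 1 the value was −3.75, and without replicate 2 it was −2.50. In KO cells it stood at 443, 206, 264 and 464 CPM and then at 24.1 and 25.1 CPM (−3.80 ± 0.44, adjusted p = 1.85e-06). All activated libraries were below all quiescent ones. Il6st, the shared gp130 chain, was lower by less. It stood at 674, 656, 662 and 771 CPM in WT quiescent cells and at 344 and 219 CPM in WT activated cells (log2 fold change −1.30 ± 0.29, adjusted p = 0.00178), and at 492 to 876 CPM and 302 to 304 CPM in KO cells (−1.24 ± 0.28, adjusted p = 0.00219). Without WT activated replicate 2 the WT call of Il6st was lost (log2 fold change −0.95, adjusted p = 0.0893).

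Lifr, the receptor chain for leukaemia inhibitory factor, stood at 86.5, 77.3, 73.0 and 74.3 CPM in WT quiescent cells and at 22.7 and 28.9 CPM in WT activated cells (log2 fold change −1.60 ± 0.33, adjusted p = 0.00104 in edgeR). In KO cells it stood at 89.0, 52.6, 75.1 and 59.5 CPM and then at 19.8 and 47.2 CPM. The 2 activated KO libraries differed by more than the gap from the higher of them to the lowest quiescent library. The KO log2 fold change was −1.04 ± 0.32 (adjusted p = 0.0166), and without KO activated replicate 1 it was −0.55 (adjusted p = 0.364) and without replicate 2 it was −1.79 (adjusted p = 0.00212). Jak1, the kinase bound to gp130, stood at 190 to 297 CPM in quiescent libraries and at 65.2 to 75.0 CPM in activated ones. Its log2 fold changes were nearly equal, at −1.72 ± 0.27 in WT (adjusted p = 7.63e-05) and −1.71 ± 0.27 in KO (adjusted p = 7.00e-05).

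**Figure D2:**
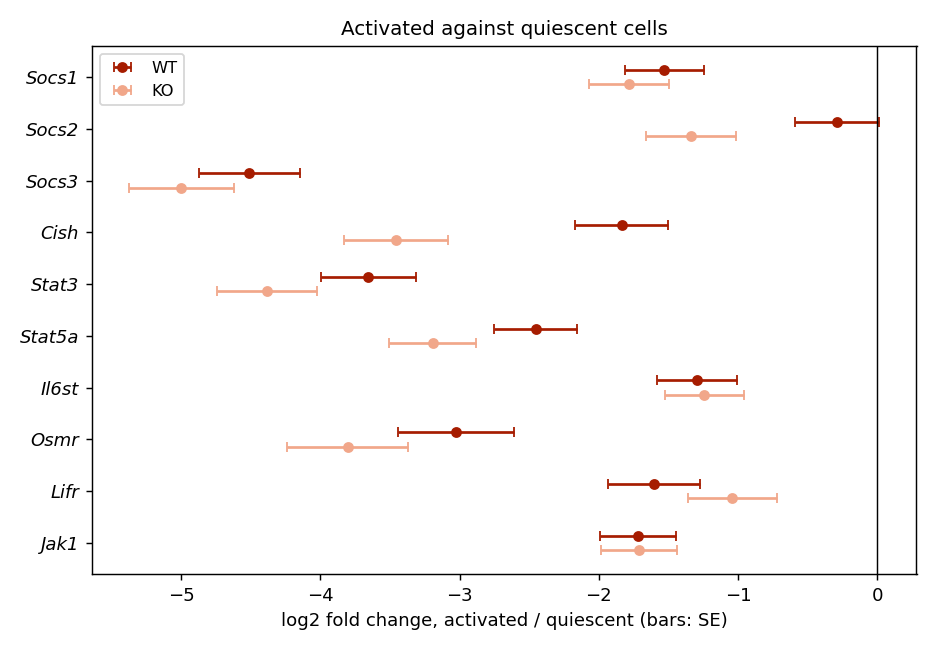
log2 fold change of activated over quiescent cells for the 10 genes (x axis, bars ± SE) in WT and KO, from the fit to all 12 libraries. All points lie below 0, from −5.00 for Socs3 in KO to −0.29 for Socs2 in WT, the only value not called.

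Counts of 2 genes within a library need no scaling between libraries. Osmr counts were 2.68 to 7.79 times the Lifr counts in quiescent libraries and 0.531 to 2.04 times in activated ones, so the ranges did not overlap. The ratio of Socs3 to Il6st counts was 1.09 to 2.19 in quiescent and 0.113 to 0.240 in activated libraries, also without overlap. The ratio of Socs3 to Stat3 counts was 0.503 to 1.31 in quiescent and 0.415 to 0.598 in activated libraries, and these ranges overlapped. Ratios of counts carry the difference in transcript length and are comparable only between libraries.

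**Figure D3:**
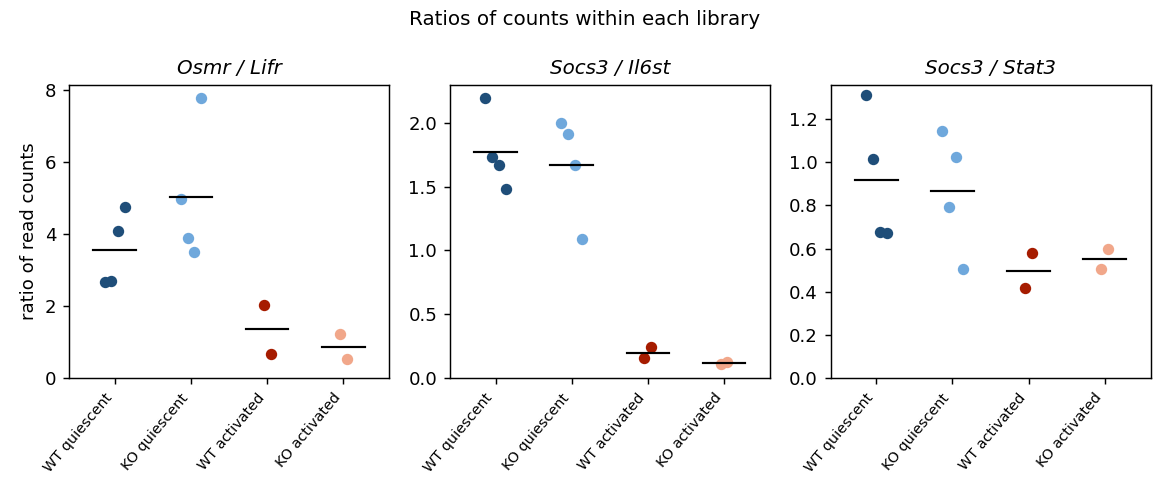
Ratios of read counts (linear axes from 0) of Osmr to Lifr, Socs3 to Il6st and Socs3 to Stat3 in the 12 libraries. Points are libraries and lines are group means. The first 2 ratios do not overlap between quiescent and activated libraries (2.68 to 7.79 against 0.531 to 2.04 for Osmr to Lifr), and the third does.

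The RNA came from bulk sorted cells, so fewer cells of a type and less RNA per cell cannot be told apart. Marker sums moved with state. The 8 satellite cell markers summed to 3178 to 5210 CPM in quiescent and 1047 to 1631 CPM in activated libraries, and the 5 muscle fibre markers to 227 to 808 CPM and 5464 to 13412 CPM. The lists for other cells lay lower in activated libraries, with overlap for all but the last, at 136 to 603 CPM against 292 to 1462 CPM for 7 endothelial markers, 250 to 730 CPM against 286 to 2966 CPM for 6 markers of fibroadipogenic progenitors, 26.1 to 57.3 CPM against 53.4 to 321 CPM for 7 hematopoietic markers, and 167 to 374 CPM against 458 to 1746 CPM for 5 markers of smooth muscle and pericytes. Each list was detected in every group, with 1 hematopoietic marker at 0 in the WT activated libraries. Their part in the differences between states was not tested.

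The wider pathway was read from 63 further genes in 8 lists, of which 61 were tested (Clcf1 and Il27 were not). In WT, 27 were lower and 5 higher in activated cells, beside 18.3% lower and 11.5% higher over all genes tested. The WT median log2 fold change was −1.19, or −0.94 with the 3 genes at 0 counts in activated WT libraries (Stat4, Osm and Ebi3) set to their bounds. In KO, 34 were lower and 5 higher (median −1.41), beside 20.4% and 13.3% over all genes. These shares also stand beside the counts per list below. The same 5 genes were higher and 25 genes lower in both genotypes. The genotypes share no library, but they share 1 fit, and state went together with sex and depth in both. The share of all genes called in both genotypes was not counted.

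Among the 8 tested gp130 cytokines and partner chains, 3 were lower and 1 higher in WT. Il6, which encodes interleukin-6, went from 57.8 to 155 CPM in WT quiescent libraries to 17.8 and 2.19 CPM in activated ones (log2 fold change −3.20 ± 0.68, adjusted p = 0.00126 in edgeR), and −5.45 or −2.45 without WT activated replicate 1 or 2. Osm, which encodes oncostatin M, was low in quiescent WT cells (1.42 to 3.13 CPM) and had 0 counts in the activated libraries of either genotype, so it was at least 5.62-fold lower in WT and at least 6.46-fold lower in KO, taking 3 counts over the group as the floor. Il11, which encodes interleukin-11, rose from 6.88 to 22.9 CPM to 117 and 165 CPM in WT (log2 fold change 3.19 ± 0.55, adjusted p = 0.000188).

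Of the other receptors, Il11ra1 (−2.35 ± 0.29) and Cntfr (−1.74 ± 0.44), the ligand-binding chains for interleukin-11 and ciliary neurotrophic factor, were lower in WT and the other 3 of 5 in the gp130 family were not called. Among 10 other type I cytokine receptors 4 were lower in WT, led by the leptin receptor gene Lepr (−3.91 ± 0.63, from 5 and 2 counts in the activated libraries) and Csf2rb (−2.62 ± 0.49), the shared chain for interleukin-3 and related cytokines, with Il4ra at −1.19 ± 0.31. The WT call of Cntfr was lost without either activated WT library (adjusted p = 0.0795 and 0.0558 in edgeR), and Il4ra ran from −1.85 without replicate 1 to −0.66 without replicate 2 (adjusted p = 0.240). Of 5 other Stat genes 2 were lower in WT, among them Stat2 (−3.59 ± 0.42). Of 3 other Jak genes, Jak2 was lower in WT (−1.87 ± 0.37), and all 3 in KO. Of 4 other Socs genes 0 were lower in either genotype, where 18.3% (WT) and 20.4% (KO) of all genes tested were lower. A list of 4 genes is too short to set against these shares. Socs6 was higher in WT (0.69 ± 0.25) and in KO (1.29 ± 0.24). The WT call of Socs6 was lost without WT activated replicate 1 or 2, WT quiescent replicate 1 or 3, or KO activated replicate 1 (adjusted p from 0.0560 to 0.227 in edgeR). Among 8 other negative regulators, 5 were lower in WT, with Ptpn6 (−3.64 ± 0.73, from 2 and 2 counts), Pias1 (−1.36 ± 0.27) and Pias3 (−1.24 ± 0.33) at the smallest p, and Pias4 was higher (1.74 ± 0.27). Ptpn6 was −2.78 without WT activated replicate 1 (adjusted p = 0.0535 in edgeR), and without replicate 2 Pias1 was −0.99 (adjusted p = 0.0548) and Pias3 −0.83 (adjusted p = 0.189).

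Of 18 known target genes of STAT3 or STAT5, 10 were lower and 2 higher in WT, and 13 lower and 2 higher in KO. Over all genes tested, 18.3% were lower and 11.5% higher in WT, and 20.4% and 13.3% in KO. Fos, an immediate early gene, went from 3342 to 4983 CPM in WT quiescent libraries to 78.4 and 23.6 CPM in activated ones (log2 fold change −6.27 ± 0.49). Cebpd, an acute-phase transcription factor, stood at 888 to 1042 CPM and then at 58.2 and 14.4 CPM (−4.70 ± 0.48). Without WT activated replicate 1 or 2, Fos was at −7.33 or −5.62 and Cebpd at −5.99 or −4.00. Nfil3, a transcription repressor, had a log2 fold change of −2.55 ± 0.27. Of the 3 targets whose promoter window held the STAT motif, Irf1 was lower (−3.63 ± 0.51), while Bcl6 (−0.63 ± 0.25) and Icam1 (−0.48 ± 0.65) were not called in WT. Icam1 was called without WT activated replicate 1 (−2.82, adjusted p = 0.00872 in edgeR). The 2 that rose in WT were Ccnd1 (2.23 ± 0.38), the cyclin D1 gene, and Bcl2l1 (1.13 ± 0.35), which encodes a survival protein. The WT call of Bcl2l1 was lost without WT activated replicate 1 (0.84, adjusted p = 0.211 in edgeR) and without WT quiescent replicate 3 (1.02, adjusted p = 0.0502). Many of these genes also answer to other signals.

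**Figure D4:**
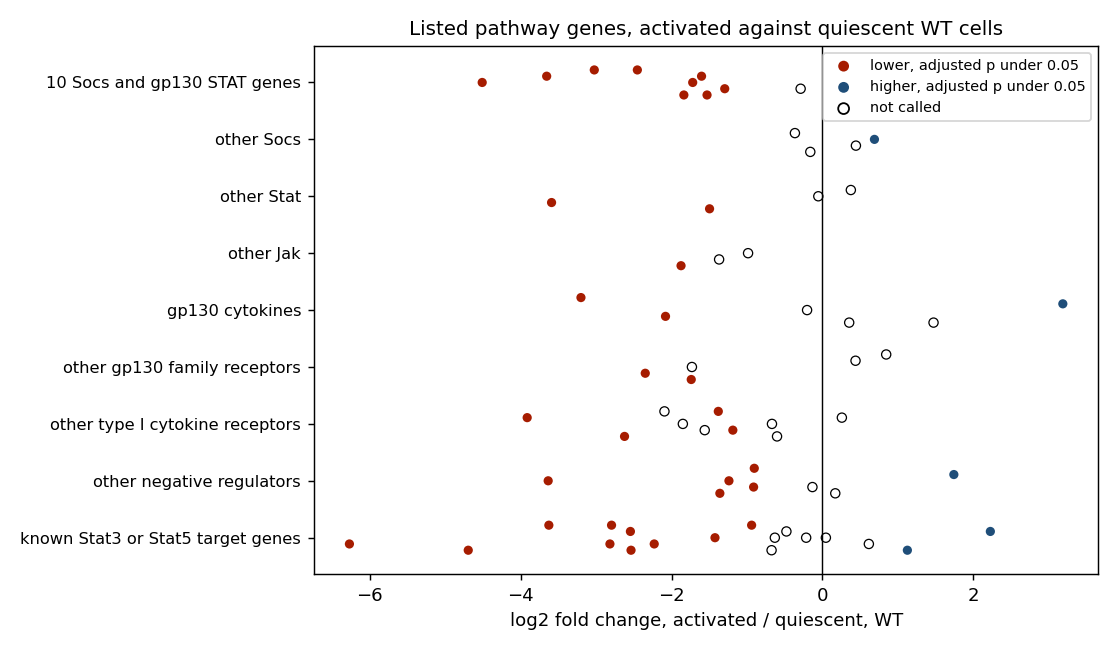
log2 fold change of activated over quiescent WT cells (x axis) for the 10 genes (top) and the listed pathway genes (other 8 lines). Each point is 1 gene, filled where its adjusted p was under 0.05, and points are spread vertically only for legibility. Stat4, Osm and Ebi3, with 0 counts in activated WT libraries, are not drawn. The 5 genes higher in activated cells lie in 4 of the 8 lists. The list of 4 other Socs genes holds no lower gene, where 18.3% of all genes tested were lower.

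Within quiescent cells, 0 of the 10 genes differed between KO and WT (edgeR, adjusted p under 0.05), where 0.0155% of all genes tested were called. Their log2 fold changes ran from −0.17 for Lifr to 0.33 for Osmr with SEs of 0.20 to 0.28, 0 of 10 had an unadjusted p under 0.05, and DESeq2 also called 0. The KO and WT libraries overlapped for all 10, while 1.7% of all genes tested had libraries that did not overlap. The median over the 10 was 0.05, against 0.02 over all genes. KO replicate 1 was the highest quiescent library for Socs3 (1752 CPM), Cish (73.3 CPM), Il6st (876 CPM), Socs2 (61.4 CPM) and Lifr (89.0 CPM). Without that library the KO against WT log2 fold change was −0.29 for Socs3 and −0.06 for Cish, and neither was called. The spread among the 4 KO libraries was wider than among the 4 WT libraries for all of the 10 genes except Stat3 (SD 291 against 315 CPM). For Socs3 the SD was 400 against 176 CPM and for Cish 16.0 against 3.11 CPM. These differences in spread were not tested.

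Within activated cells, 0 of the 10 genes were called between KO and WT by edgeR or by DESeq2, with 0.0504% of all genes called by edgeR, and 3 had an unadjusted p under 0.05, as did 2158 of the 25771 genes tested (8.37%). The 3 were Cish, Socs2 and Stat3, all lower in KO, while the 8.37% counts genes in either direction. Cish stood at 5.14 and 4.11 CPM in KO and at 15.7 and 8.76 CPM in WT (log2 fold change −1.45 ± 0.40, adjusted p = 0.232 in edgeR), from 20 and 18 counts in KO. Without WT activated replicate 2, the shallowest library, it passed the threshold (−1.84, adjusted p = 0.0426) in a fit that called 211 of 33060 genes, 192 of them lower, where the fit to all libraries called 13. Without WT activated replicate 1 Cish was −1.02 (adjusted p = 1). Socs2 stood at 14.6 and 23.5 CPM in KO and 45.1 and 34.2 CPM in WT (−1.06 ± 0.36, adjusted p = 0.372 in edgeR). Stat3 stood at 67.6 and 66.4 CPM in KO and 130 and 90.6 CPM in WT (−0.72 ± 0.33, adjusted p = 0.585 in edgeR).

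The KO libraries lay wholly below the WT libraries for these 3 genes and for Socs3 (−0.53 ± 0.34) and Stat5a (−0.59 ± 0.33), so that 5 of the 10 did not overlap. Among all genes tested, 24.7% did not overlap in this comparison of 2 with 2. Osmr (−0.45 ± 0.43), Socs1 (−0.21 ± 0.31), Il6st (0.11 ± 0.31), Jak1 (0.07 ± 0.29) and Lifr (0.39 ± 0.36) overlapped. The median over the 10 was −0.49, against 0 over all genes. Among the 61 pathway genes 0 were called and 7 had an unadjusted p under 0.05, a share of 11.5% beside the 8.37% of all genes. All 7 were lower in KO, while the 8.37% counts either direction, and its split by direction was not counted.

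**Figure D5:**
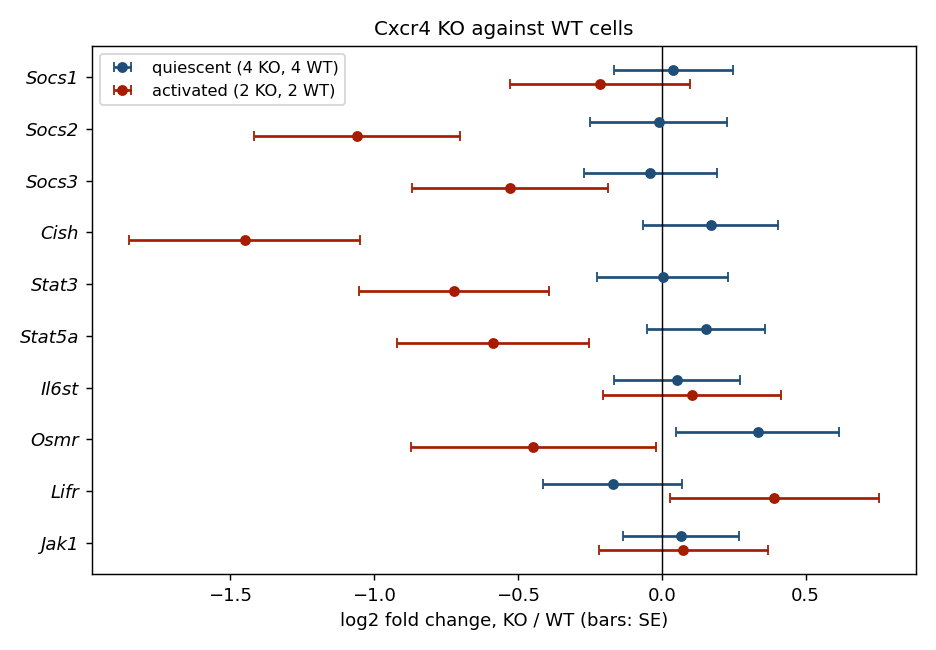
log2 fold change of KO over WT for the 10 genes (x axis, bars ± SE) in quiescent (4 against 4) and activated (2 against 2) cells. Quiescent values lie between −0.17 and 0.33. Activated values run from −1.45 for Cish to 0.39 for Lifr, and none passed an adjusted p of 0.05.

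The difference between the activated and the quiescent KO effect was tested as an interaction. It was called for 0 of the 10 genes, where 0% of all genes were called by edgeR (1699 of 25771 had an unadjusted p under 0.05, and DESeq2 called 45). The value for Cish was −1.62 ± 0.47 (adjusted p = 0.403 in edgeR) and that for Socs2 −1.05 ± 0.43 (adjusted p = 0.694 in edgeR), the 2 of the 10 with an unadjusted p under 0.05. A larger KO effect in activated cells was therefore not shown for any of the 10.

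To set the genes beside each other, CPM was divided by the exon length of each gene in GENCODE M21 (GRCm38), in kilobases, written here as FPKM. In WT quiescent cells Socs3 came first at 420 ± 61 FPKM (SD, n = 4), then Stat3 at 146 ± 33.0, Il6st at 62.2 ± 4.88, Jak1 at 31.1 ± 5.66, Socs1 at 29.5 ± 4.52, Osmr at 22.5 ± 5.44, Stat5a at 10.8 ± 1.08, Lifr at 7.21 ± 0.564, Cish at 7.02 ± 0.484 and Socs2 at 5.11 ± 0.622 FPKM. Libraries of neighbours overlapped for Jak1 and Socs1, for Socs1 and Osmr, and for Lifr and Cish. In WT activated cells the order opened with Il6st at 25.3 ± 7.98 FPKM (SD, n = 2), above Socs3 at 18.4 ± 0.334 and Stat3 at 11.6 ± 2.91, with no overlap between these 3. Socs1 (10.3 ± 2.85) and Jak1 (9.45 ± 0.606) followed, and Socs1 overlapped with both Stat3 and Jak1. Socs2 (4.16 ± 0.811), Osmr (2.71 ± 1.58), Lifr (2.39 ± 0.406), Stat5a (1.96 ± 0.247) and Cish (1.90 ± 0.763 FPKM) came last, each overlapping with the next. KO quiescent cells had the WT order except that Cish (7.90 ± 2.49) stood above Lifr (6.41 ± 1.51 FPKM), within their spread. In KO activated cells the order was Il6st (27.3 ± 0.163 FPKM, n = 2), Socs3 (12.8 ± 1.35), Jak1 (9.94 ± 0.62), Socs1 (8.81 ± 1.03), Stat3 (7.03 ± 0.0865), Lifr (3.11 ± 1.80), Osmr (2.03 ± 0.0555), Socs2 (2.00 ± 0.657), Stat5a (1.31 ± 0.226) and Cish (0.720 ± 0.114 FPKM). There Jak1 overlapped with Socs1, and Lifr, Osmr and Socs2 overlapped with their neighbours in that run. The authors' deposited FPKM, 1 value per group, was 408 for Socs3 and 60.4 for Il6st in WT quiescent cells and 18.8 and 25.6 in WT activated cells.

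Genes with the most similar pattern were taken as those with the smallest root-mean-square difference of centred log2 CPM over the 12 libraries, among 14006 genes. For Socs3 they were Gbp2, which encodes an interferon-inducible GTPase (0.24), Gm10463 (0.32) and Ptpn13 (0.33). Gbp2 averaged 68.6 CPM in WT quiescent and 2.89 CPM in WT activated cells, and Ptpn13 39.7 and 1.39 CPM. Gm10463 averaged 3.10 CPM in WT quiescent cells and 0 CPM in activated cells of either genotype. Its distance to Socs3 therefore rests in part on the prior count of 2 used for log2 CPM. For Osmr they were Ralgds (0.24), Agap2 (0.29) and Rnf24 (0.29), and for Lifr they included Aplp2 (0.19) and Phf21a (0.22). Aplp2, which encodes a relative of the amyloid precursor protein, averaged 229 CPM in WT quiescent and 66.7 CPM in WT activated cells.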

How the data were processed

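Poly(A) RNA of 12 libraries in 4 groups was sequenced. Reads were trimmed with Trim Galore 0.6.0 and aligned with STAR 2.7.2a to GRCm38.p6 (mm10), per the submitters' processing notes, and the authors deposited read counts per gene as well as FPKM with 1 pooled value per group. How multi-mapping reads and strand were treated, and which scaling the FPKM values carry, is not given in the sources used here. From the counts, edgeR 4.0.16 (R 4.3.3) was run with TMM scaling, its default low-count filter and the quasi-likelihood test on all 12 libraries with 1 mean per group. Of 55401 genes 25771 were tested, and p-values were adjusted over all of them (Benjamini-Hochberg). The SE of a log2 fold change was derived from the F statistic. log2 CPM used a prior count of 2. No row of unassigned reads was present, and the ribosomal RNA row was kept except in an alternative. Replicate pairs differed beyond sampling noise (chi-square per degree of freedom 15.4 to 103), so each library counted once. The alternatives were DESeq2 size factors, no low-count filter, DESeq2 1.42.0, the compared groups alone, a replicate block, a stricter call (absolute log2 fold change over 1 and mean count over 10), no ribosomal RNA row, leaving out each library, and CPM by total counts for the order of levels. The scripts were tested on simulated data.

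The 10 genes, the lists and the motif were chosen with earlier results of these data known. Named besides the 10 were up to 3 genes per list and direction with the smallest p among those called in WT activated against quiescent cells, the 3 nearest patterns for Socs3, Osmr and Lifr, and Cxcr4. Some genes that this rule names are not reported here. Stat5b, Stat4, Ebi3, Clcf1, Il27, Irf1, Icam1 and Bcl6 and the genes named under the processing alternatives were added after their values were seen. Exon lengths are from GENCODE M21, another release than the authors used on the same assembly. Overlap of transcripts was searched with blastn (at least 150 bases at 90% identity).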

Additional observations from a re-analysis of the deposited data

Results flagged for a closer look

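Among groups of 4 libraries, Socs3 in WT quiescent cells was flagged because replicate 1 (1477 CPM) lay far from the other three (1102 to 1140 CPM), with a gap of 0.901 of the whole range (Dixon's test). Il6st in WT quiescent cells was flagged for replicate 4 (771 CPM against 656 to 674 CPM), with a gap of 0.845 of the range. These were 2 of 20 groups tested, and chance flags about 1 in 20.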

How the results depend on the processing

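The state differences kept their direction for all 10 genes under every alternative run, and 9 of 10 (WT) and 10 of 10 (KO) were called under the replicate block too. Of 190 single-gene alternatives per genotype, 1 in WT (Il6st) and 2 in KO (Socs2 and Lifr) lost their call, each when 1 activated library was left out. The median shift over all genes depended on the genes tested, at −0.56 in WT and −0.62 in KO with the compared groups alone. Between KO and WT in activated cells, leaving out 1 library gave 0 to 1 of the 10 genes called (Cish, without WT activated replicate 2). Pathway genes called there, all lower in KO, numbered 5 without the low-count filter (Il6, Lif, Fos, Timp1 and Icam1), 4 with DESeq2 (Il4ra, Bcl3, Fos and Timp1) and 0 to 5 with 1 library left out. Calls over all genes rose too, from 13 to 127 higher and 207 lower without the filter, 58 and 87 with DESeq2, and 19 and 192 without WT activated replicate 2. For the interaction, the pathway genes called numbered 4 without the filter, 2 with DESeq2 and 0 to 3 with 1 library left out. Over all genes, interaction calls were 63 higher and 107 lower without the filter, and 17 and 28 with DESeq2. The cause was not tested. Log2 fold changes that were not called changed sign in 23 of 190 alternatives for KO against WT in quiescent cells, 6 of 190 in activated cells and 14 of 180 for the interaction. Osmr in activated cells ran from −0.99 to 0.26 and Lifr from −0.43 to 0.87 with 1 library left out. CPM by total counts kept 38 of the 40 ranks of the levels (Stat5a and Cish changed places in WT activated cells). Same-numbered WT and KO quiescent libraries correlated at 0.22, 0.17, −0.22 and 0.55 (deviations from group means), and not every library correlated best with its own number. They were alike in total counts, with replicate 2 lowest in both genotypes (12775593 and 13075208). The labels do not say what a number marks, so the fit without the block was kept, and a batch shared by number was not tested further than by the block. With the replicate block 0 of the 10 genes were called between KO and WT in either state. Leaving out a library from a group of 2 assumes that the remaining one varies like the other groups. Activated libraries hold few counts, which limits what can be seen for Cish and Il6.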

Other observations

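Of the pathway genes that alternatives called between activated KO and WT cells, Timp1, which encodes an inhibitor of matrix proteases, stood at 41.2 and 8.32 CPM in WT and 5.91 and 2.05 CPM in KO (log2 fold change −2.70 ± 0.62, adjusted p = 0.133 in edgeR). The Timp1 value was −1.17 without WT activated replicate 1 (adjusted p = 1), −3.45 without WT activated replicate 2 (adjusted p = 0.00192) and −3.64 without KO activated replicate 1 (adjusted p = 0.0598). WT replicate 1 had the highest endothelial (603 CPM), fibroadipogenic (730 CPM) and smooth muscle and pericyte (374 CPM) marker sums of the 4 activated libraries, and their part in these values was not tested. Bcl3, which encodes a nuclear partner of NF-κB, stood at 37.6 and 18.8 CPM in WT and 13.1 and 11.2 CPM in KO (−1.25 ± 0.33, adjusted p = 0.202 in edgeR), and Bcl3 passed without WT activated replicate 2 (−1.71, adjusted p = 0.0172). Il6 had 109 and 5 counts in WT and 1 and 10 counts in KO. The KO and WT libraries did not overlap for Timp1 and Bcl3, as for 24.7% of all genes tested in this comparison of 2 with 2. For Il6 they overlapped in CPM, where the WT libraries alone spanned 2.19 to 17.8 CPM.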
